A study of Danio rerio with 8 samples.

Results

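The feedback inhibitors and ETS transcription factors that report FGF signalling through RAS and ERK were followed in sorted cells of the larval zebrafish heart. They were taken by symbol from the table of gene values, whatever their levels: *spry1*, *spry2*, *spry4*, *spred1*, *il17rd*, *dusp6*, *etv4*, *etv5a* and *etv5b*. All 9 were found among the 21286 genes of the table, and all 9 passed the minimum mean value for testing. FGF ligands bind FGF receptors at the cell surface, and the active receptors switch on RAS, RAF, MEK and ERK in turn. ERK induces the genes described here, and several of their products then dampen the same cascade, so that their transcripts are widely read as a gauge of FGF/ERK activity. In the heart, FGF signals pass between the epicardium, the outer cell layer, and the myocardium during growth.

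The study asked which signals epicardial cells (EpiCs) send to cardiomyocytes (CMs), with FGF ligands among the candidates, and it sorted both cell types from dissected hearts at 96 hours post fertilization (hpf). The 4 groups were EpiCs of *tcf21-/-* and of *tcf21+/+* hearts and CMs of *tcf21-/-* and of *tcf21+/+* hearts, with 2 libraries in each and 8 in all. EpiCs carried the *tcf21* BAC reporter with nuclear EGFP (Tg(tcf21:nls-EGFP)+ in the labels), and cells that also carried myocardial fluorescence were counted as EpiCs. CMs were Tg(myl7:mCherry-CAAX)+, a membrane reporter driven by the *myl7* promoter, and lacked the EGFP. The *tcf21* allele is a small CRISPR/Cas9 deletion with a frameshift, and Tcf21 is a transcription factor of the epicardium. Mutant larvae came from crosses of heterozygotes, and only those with much of the ventricle still covered by EpiCs were used, whereas the parents of the *tcf21+/+* larvae were themselves *tcf21+/+*. The effects of genotype and of parentage thus cannot be told apart, and cells were collected over several sorting sessions.

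The values are read counts per gene divided by 1 factor per library and rounded, here called normalized counts. Each library held an estimated 6.44 to 11.4 M reads on genes, and 1 read was worth 0.776 to 1.573 normalized counts, the most in *tcf21+/+* CMs replicate 1. All 8 epicardial markers were higher in EpiCs than in CMs, and all 9 rows of cardiomyocyte markers were lower, in both genotypes. *tcf21* itself had normalized counts of 1636 and 1454 in *tcf21-/-* EpiCs, against 1600 and 1851 in *tcf21+/+* EpiCs, and the deletion is too small for these counts to check the genotype. Summed cardiomyocyte markers stood at 7641 to 12424 in EpiCs against 84523 to 90404 in CMs, and summed epicardial markers at 26571 to 30190 in EpiCs against 824 to 1172 in CMs. Single cardiomyocyte markers, picked after their values were seen, differed by unlike amounts. *ttn.2* had 1089 to 3110 in EpiCs against 29598 to 33042 in CMs. *myl7*, whose promoter drives the CM reporter, had 1222 to 1377 in EpiCs against 2466 to 3718 in CMs. In estimated reads, before division by the factor, *myl7* varied less within a cell type, with 1534 to 1718 in EpiCs and 2322 to 2535 in CMs. The part of a limit on reads per base, given below, in these *myl7* values was not tested. The 7 leukocyte markers summed to 1724 and 2466 in *tcf21-/-* CMs, 481 and 616 in *tcf21+/+* CMs, and 20 to 51 in EpiCs, where *ptprc* was at 0 in all 4 libraries. Of the 6 that were tested, limma called 0 between CM genotypes and 2 had an unadjusted *P* under 0.05, and their part in the results below was not tested. In sorted bulk samples such as these, fewer cells of a type and less RNA per cell cannot be told apart.

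*dusp6*, *spry4* and *etv4* were the members called between the cell types, all 3 lower in EpiCs than in CMs and in both genotypes. Of all genes tested, 18% were called lower in EpiCs in *tcf21-/-* and 18.8% in *tcf21+/+* cells. The calls for *dusp6* held in every alternative run, whereas those for *spry4* and *etv4* were each lost in some. *dusp6* differed most, at 3.44-fold lower in EpiCs than in CMs of *tcf21-/-* hearts and 3.36-fold lower in those of *tcf21+/+* hearts. *spred1* was the only member whose level was above that of CMs in every EpiC library, though it was not called. *spry2* hardly varied in normalized counts, *spry1* rested on few reads, and no member was called between genotypes. A gene was called where limma gave a Benjamini–Hochberg adjusted *P* (*P*adj) under 0.05 over 16077 genes and a log2 fold change (log2FC, on log2(value + 1)) of at least 0.59 in size.

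**Figure D1:**
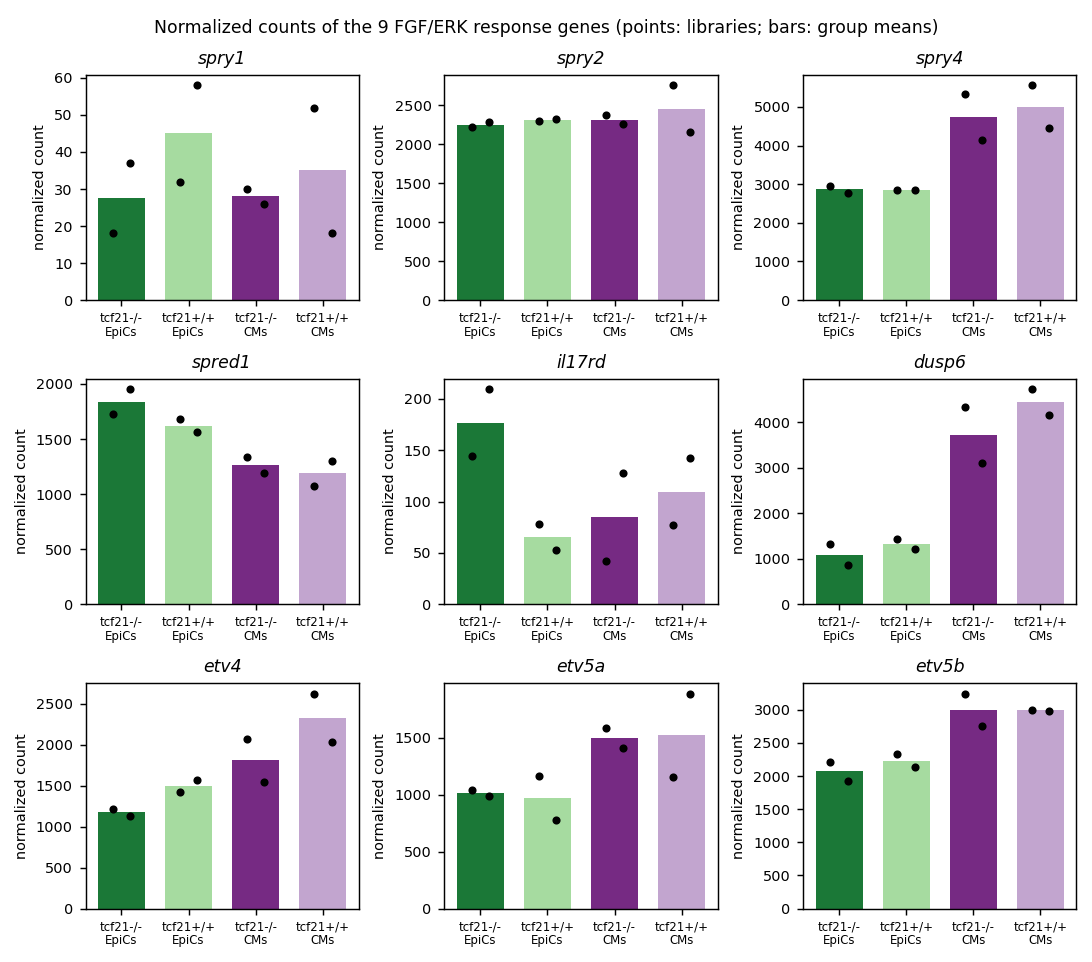
Normalized counts (vertical axes, each starting at 0 with its own scale) of the 9 genes in the 4 groups, with a point for each library and a bar for the mean of 2. *dusp6* stood at 863 to 1427 in the 4 EpiC libraries against 3099 to 4720 in the 4 CM libraries, whereas *spry2* stayed between 2159 and 2759 in all 8.

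The Sprouty genes encode membrane-associated proteins that restrain receptor signalling to RAS and ERK. *spry4* (ENSDARG00000068732, danRer11 chromosome 21, 44684577 to 44691068, plus strand) had normalized counts of 2957 and 2778 in *tcf21-/-* EpiCs, 2844 and 2857 in *tcf21+/+* EpiCs, 5328 and 4139 in *tcf21-/-* CMs, and 5559 and 4446 in *tcf21+/+* CMs. Every EpiC library was below every CM library, and the genotypes overlapped within each cell type. The log2FC was -0.71 (SE 0.17, *P*adj=0.00996) between *tcf21-/-* EpiCs and *tcf21-/-* CMs, and -0.80 (SE 0.17, *P*adj=0.00525) between *tcf21+/+* EpiCs and *tcf21+/+* CMs. The call for *spry4* was lost in both genotypes under quantile normalization, where the log2FC was -0.47 in *tcf21-/-* and -0.44 in *tcf21+/+* cells, and in unscaled reads, at -0.35 and -0.17. It was also lost in *tcf21-/-* cells without the abundance trend (*P*adj=0.0634), without EpiCs replicate 1 (*P*adj=0.0583), without EpiCs replicate 2 (*P*adj=0.0879) and without CMs replicate 1 (log2FC -0.53, *P*adj=0.0871).

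*spry2* (ENSDARG00000078308, chromosome 1, 5273481 to 5277583, plus strand), another Sprouty gene, was the steadiest of the 9 in normalized counts. Its normalized counts were 2217 and 2283 in *tcf21-/-* EpiCs, 2305 and 2329 in *tcf21+/+* EpiCs, 2375 and 2262 in *tcf21-/-* CMs, and 2759 and 2159 in *tcf21+/+* CMs. The highest library was 1.28 times the lowest, and both extremes belonged to the same group, *tcf21+/+* CMs. In estimated reads that ratio was 1.69, above those of *etv4* (1.34), *spry4* (1.47) and *etv5b*. The log2FC between EpiCs and CMs was -0.04 in *tcf21-/-* cells (95% interval -0.40 to 0.32) and -0.08 in *tcf21+/+* cells (95% interval -0.43 to 0.28). *spry1* (ENSDARG00000103985, chromosome 14, 497695 to 498979, minus strand) had only 18 and 37 in *tcf21-/-* EpiCs, 32 and 58 in *tcf21+/+* EpiCs, 30 and 26 in *tcf21-/-* CMs, and 52 and 18 in *tcf21+/+* CMs. These rest on 17 to 65 estimated reads, all groups overlapped, and the interval of the log2FC between *tcf21+/+* EpiCs and *tcf21+/+* CMs ran from -1.20 to 2.15.

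Spred1 is a relative of the Sproutys that blocks the activation of RAF. *spred1* (ENSDARG00000041449, chromosome 17, 52639492 to 52659119, minus strand) had 1723 and 1950 in *tcf21-/-* EpiCs, 1678 and 1560 in *tcf21+/+* EpiCs, 1341 and 1196 in *tcf21-/-* CMs, and 1074 and 1305 in *tcf21+/+* CMs. All 4 EpiC libraries lay above all 4 CM libraries, the opposite order to *spry4*. The log2FC was 0.53 in *tcf21-/-* cells (SE 0.17, *P*adj=0.0357) and 0.45 in *tcf21+/+* cells (SE 0.17, *P*adj=0.0626), both under the limit of 0.59 for a call. Without *tcf21+/+* CMs replicate 2 the *tcf21+/+* difference was called (log2FC 0.59, *P*adj=0.0189), and both genotypes were called under quantile normalization and in unscaled reads. Relative to the median log2FC of all genes tested, *spred1* stood at 0.45 in *tcf21-/-* and 0.34 in *tcf21+/+* cells in unscaled reads. These values were the same with the scaling of the authors, and were 0.67 and 0.68 under quantile normalization. *spred1* overlaps *angel1* on the other strand, and reads lying on more than 1 gene were left out by the authors.

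*il17rd* encodes Sef, a transmembrane inhibitor of FGF signalling first described in zebrafish. *il17rd* (ENSDARG00000098359, chromosome 11, 42641404 to 42722658, plus strand) had 144 and 209 in *tcf21-/-* EpiCs, 78 and 53 in *tcf21+/+* EpiCs, 42 and 128 in *tcf21-/-* CMs, and 77 and 142 in *tcf21+/+* CMs. It was the only member whose EpiCs stood above CMs in *tcf21-/-* cells but not in *tcf21+/+* cells, where the libraries overlapped. The log2FC of EpiCs over CMs was 1.23 in *tcf21-/-* cells (SE 0.61, *P*adj=0.15) and -0.69 in *tcf21+/+* cells (SE 0.61, *P*adj=0.399), and neither was called. Its lowest library held 37 estimated reads, and replicates of *tcf21-/-* CMs differed 42 against 128. Leaving out *tcf21-/-* CMs replicate 1 brought the *tcf21-/-* log2FC to 0.44 (*P*adj=0.639), and leaving out *tcf21-/-* CMs replicate 2 brought it to 2.02 (*P*adj=0.0431, called). *il17rd* overlaps *si:ch73-106k19.2* on the other strand.

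Dusp6 is a phosphatase that removes the activating phosphates from ERK, and its gene is a standard marker of FGF activity in zebrafish embryos. *dusp6* (ENSDARG00000070914, chromosome 25, 18326298 to 18330503, minus strand) had 1316 and 863 in *tcf21-/-* EpiCs, 1427 and 1221 in *tcf21+/+* EpiCs, 4333 and 3099 in *tcf21-/-* CMs, and 4720 and 4170 in *tcf21+/+* CMs. The lowest CM library was above the highest EpiC library, and within each cell type the genotypes overlapped. The log2FC of EpiCs over CMs was -1.78 in *tcf21-/-* cells (SE 0.24, *P*adj=0.000538) and -1.75 in *tcf21+/+* cells (SE 0.24, *P*adj=0.000542). *dusp6* was called in every alternative run for both comparisons, at log2FC of -2.08 to -1.42 in *tcf21-/-* and -1.86 to -1.12 in *tcf21+/+* cells. Of all genes tested, 9.67% had a smaller *P* in *tcf21-/-* cells and 11.0% in *tcf21+/+* cells.

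Etv4, Etv5a and Etv5b are ETS factors of the PEA3 group, which ERK both induces and activates and which carry the FGF response to target genes. *etv4* (ENSDARG00000018303, chromosome 12, 27536095 to 27568694, plus strand) had 1215 and 1134 in *tcf21-/-* EpiCs, 1419 and 1573 in *tcf21+/+* EpiCs, 2073 and 1544 in *tcf21-/-* CMs, and 2622 and 2037 in *tcf21+/+* CMs. The 2 EpiC libraries of each genotype were below the 2 CM libraries of that genotype, and *tcf21-/-* EpiCs were the lowest group. The log2FC of EpiCs over CMs was -0.61 in *tcf21-/-* cells (SE 0.20, *P*adj=0.0388) and -0.63 in *tcf21+/+* cells (SE 0.20, *P*adj=0.0325), just past the limit. The call for *etv4* held in 9 of 16 alternatives in *tcf21-/-* cells and in 7 of 16 in *tcf21+/+* cells. In *tcf21-/-* cells it was lost without EpiCs replicate 1 (*P*adj=0.121), EpiCs replicate 2 (*P*adj=0.182) or CMs replicate 1 (*P*adj=0.26), and in *tcf21+/+* cells without the same 3 libraries of that genotype (*P*adj of 0.164, 0.0898 and 0.122).

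*etv5b* (ENSDARG00000044511, chromosome 6, 14030903 to 14040161, minus strand) had 2219 and 1932 in *tcf21-/-* EpiCs, 2326 and 2137 in *tcf21+/+* EpiCs, 3244 and 2761 in *tcf21-/-* CMs, and 3004 and 2983 in *tcf21+/+* CMs. All 4 EpiC libraries were below all 4 CM libraries, by a log2FC of -0.53 in *tcf21-/-* cells (SE 0.15, *P*adj=0.0221, under the limit) and -0.42 in *tcf21+/+* cells (SE 0.15, *P*adj=0.0507). Without *tcf21-/-* CMs replicate 2 the *tcf21-/-* difference was called, at a log2FC of -0.65 (*P*adj=0.0402). *etv5a* (ENSDARG00000069763, chromosome 9, 22631672 to 22649297, plus strand) had 1039 and 987 in *tcf21-/-* EpiCs, 1161 and 781 in *tcf21+/+* EpiCs, 1589 and 1406 in *tcf21-/-* CMs, and 1156 and 1886 in *tcf21+/+* CMs. Its EpiC libraries were below the CM libraries in *tcf21-/-* cells only, with a log2FC of -0.56 (SE 0.27, *P*adj=0.135), and in *tcf21+/+* cells, where the groups overlapped, the log2FC was -0.63 (SE 0.27, *P*adj=0.0904). The *tcf21+/+* log2FC of *etv5a* was -0.99 without *tcf21+/+* CMs replicate 1 (*P*adj=0.016, called) and -0.28 without *tcf21+/+* CMs replicate 2 (*P*adj=0.381).

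Of the 9 members, 3 were called lower and 0 higher in *tcf21-/-* EpiCs compared with *tcf21-/-* CMs, beside 18% of all genes tested called lower and 21% called higher. In *tcf21+/+* cells the members' counts were again 3 lower and 0 higher, beside 18.8% of genes called lower and 22.9% higher. An unadjusted *P* under 0.05 was found for 5 members in *tcf21-/-* cells, against 47.5% of all genes, and for 6 in *tcf21+/+* cells, against 50.8%. The libraries of EpiCs and CMs did not overlap for 7 members in *tcf21-/-* cells, against 74.9% of all genes, and for 5 in *tcf21+/+* cells, against 69.2%. The median log2FC of the members was -0.53 in *tcf21-/-* and -0.63 in *tcf21+/+* cells, while that of all genes tested was 0.09 and 0.11. Both comparisons of cell types gave the members a negative log2FC for 7 of 9.

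**Figure D2:**
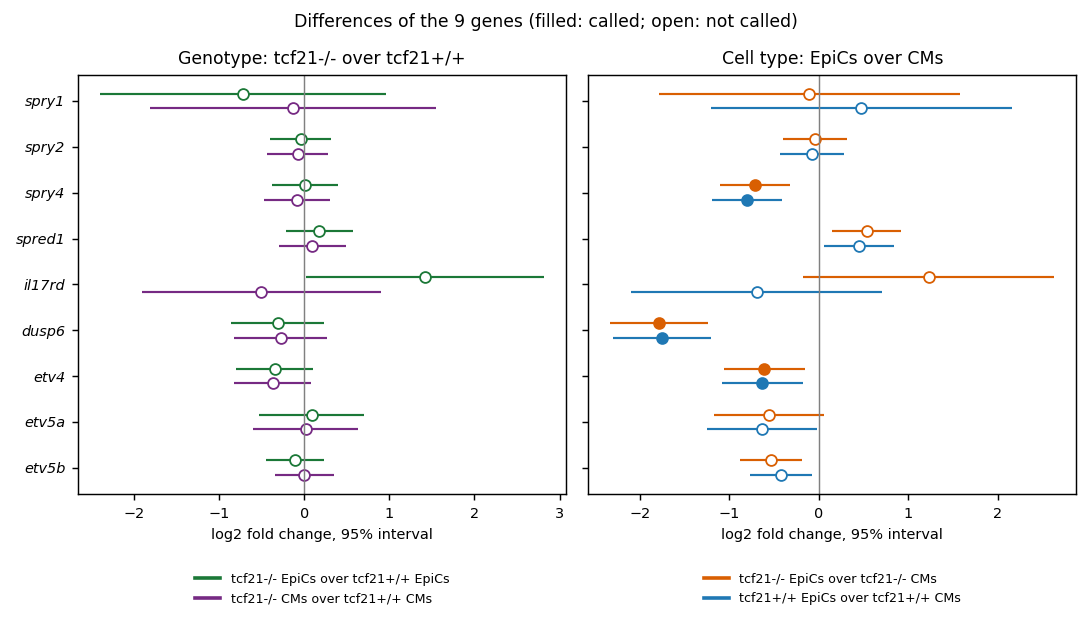
Log2 fold changes (horizontal axes) of the 9 genes with 95% intervals, between genotypes on the left and between cell types on the right, with filled points for called genes. The filled points are *spry4*, *dusp6* and *etv4* in the cell type panel, and no point in the genotype panel is filled.

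Between genotypes, no member was called. In EpiCs, limma called 0 of 9 members, 1 had an unadjusted *P* under 0.05, and 0.0435% of all genes were called higher and 0.149% lower, with 8.46% under the unadjusted *P*. In CMs, 0 of 9 were called and 0 had an unadjusted *P* under 0.05, beside 0.249% of all genes called higher, 0.118% lower and 12.2% under the unadjusted *P*. The *tcf21-/-* and *tcf21+/+* libraries did not overlap for 4 members in EpiCs, against 43.1% of all genes, and for 0 in CMs, against 39.8%. With 2 libraries a group, the intervals below show the sizes that these data leave possible, given 1 spread per gene shared by all groups. The intervals in EpiCs thus also carry the spread between CM libraries, and those in CMs the spread between EpiC libraries.

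Among the members, the largest difference between genotypes was that of *il17rd* in EpiCs, at a log2FC of 1.42 (SE 0.61, 95% interval 0.02 to 2.82, unadjusted *P*=0.0478, *P*adj=0.581), with both *tcf21-/-* libraries above both *tcf21+/+* libraries. Beside it, the 8 endothelial and endocardial markers summed to 5011 and 5231 in *tcf21-/-* EpiCs against 4753 and 3592 in *tcf21+/+* EpiCs. Most of these sums came from *kdrl*, *fli1a* and *nfatc1*, which were called higher in EpiCs than in CMs in both genotypes. Of the 7 tested, limma called 0 between EpiC genotypes, and 4 (*tie1*, *pecam1*, *cdh5* and *nfatc1*) were higher in *tcf21-/-* EpiCs at an unadjusted *P* under 0.05. *kdrl* was the 1 with a negative log2FC, at -0.21. Of the 9 rows of cardiomyocyte markers, limma called 1 lower and 0 higher in *tcf21-/-* EpiCs than in *tcf21+/+* EpiCs. Under an unadjusted *P* of 0.05, 2 were lower (*nppa* and *myh6*) and 0 higher. The median log2FC of the 9 was -0.09, with 2 positive and 7 negative. The 1 called, the natriuretic peptide gene *nppa*, had 127 and 80 in *tcf21-/-* EpiCs against 740 and 618 in *tcf21+/+* EpiCs (log2FC -2.73, SE 0.27, *P*adj=0.0192). That call was lost in 7 of 17 alternatives, including the omission of any 1 of the 4 EpiC libraries (*P*adj of 0.1203 and 0.1095 for *tcf21-/-* and 0.09561 and 0.1433 for *tcf21+/+* replicates 1 and 2). The part of these markers in the EpiC differences was not tested. In CMs the log2FC of *il17rd* was -0.50 (SE 0.61, 95% interval -1.90 to 0.90), with overlapping libraries. The effect in EpiCs minus that in CMs was 1.92 (SE 0.87, 95% interval -0.06 to 3.90, unadjusted *P*=0.0558, *P*adj=0.721). This test of the difference between the cell types called 0 members and 0% of all genes, with 0 members and 7.07% of genes under an unadjusted *P* of 0.05. *etv4* was lower in both *tcf21-/-* EpiC libraries than in both *tcf21+/+* EpiC libraries, with a log2FC of -0.35 (SE 0.20, 95% interval -0.80 to 0.11, *P*adj=0.742). In CMs, where the libraries overlapped, its log2FC was -0.37 (SE 0.20, 95% interval -0.82 to 0.08, *P*adj=0.472).

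For *dusp6* the log2FC between genotypes was -0.31 in EpiCs (95% interval -0.86 to 0.24) and -0.28 in CMs (95% interval -0.82 to 0.27). The Sprouty genes with many reads had narrower intervals. That of *spry2* was -0.40 to 0.32 in EpiCs and -0.43 to 0.28 in CMs, and that of *spry4* was -0.38 to 0.40 in EpiCs and -0.47 to 0.31 in CMs. *spred1* was higher in both *tcf21-/-* EpiC libraries than in both *tcf21+/+* EpiC libraries, by a log2FC of 0.18 (95% interval -0.21 to 0.57), and had a log2FC of 0.10 in CMs. *etv5a* stood at 0.09 in EpiCs and 0.02 in CMs, and *etv5b* at -0.11 in EpiCs. The interval of *etv5b* in CMs was -0.35 to 0.35, and that of *spry1* in EpiCs, the widest of the 9, was -2.39 to 0.96.

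Ranked by group mean, *tcf21+/+* CMs were the highest group for *spry2*, *spry4*, *dusp6*, *etv4* and *etv5a*, but for each of these they overlapped with the next group, *tcf21-/-* CMs. *tcf21-/-* CMs and *tcf21+/+* CMs overlapped for all 9. The step from the lowest CM group down to the highest EpiC group was free of overlap for *spry4*, *dusp6*, *etv5a* and *etv5b*. For *spred1* the step ran from EpiCs down to CMs. For *etv5a* it joined the *tcf21-/-* groups only, and *tcf21+/+* EpiCs and CMs overlapped. For *etv4* it joined *tcf21-/-* CMs and *tcf21+/+* EpiCs, which overlapped, though the cell types were separate within each genotype. Of all genes, 74.9% were separate between cell types in *tcf21-/-* and 69.2% in *tcf21+/+* cells. By the root mean square (r.m.s.) difference of centred log2 values over the 8 libraries, the members closest to each other were *spry4* and *etv5b* (0.18), *spry4* and *etv4* (0.18), and *etv4* and *etv5b* (0.21). *dusp6* was closest to *spry4* among the members, at 0.54. As a description, the nearest of 11428 genes were *xpnpep3* (0.12) and *gapdh* (0.13) for *dusp6*, *bckdk* for *spry4* (0.08), *hspb1* for *etv4* (0.08), *cdk5rap3* for *etv5b* (0.08) and *hnrnpdl* for *spry2* (0.05). No nearest gene was a member, which cannot show whether the members vary together, because they are few among the genes searched.

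Among the ligands at the head of the cascade some were higher in EpiCs and more were lower. Of all genes tested, 21% were called higher and 18% lower in *tcf21-/-* EpiCs than in *tcf21-/-* CMs. In *tcf21+/+* cells these shares were 22.9% and 18.8%, and they apply to each list below. Of 25 FGF ligand genes, 16 were tested, of which 3 were called higher and 8 lower in *tcf21-/-* EpiCs compared with *tcf21-/-* CMs, and 5 higher and 9 lower in *tcf21+/+* EpiCs compared with *tcf21+/+* CMs. These counts include *fgf11a*, *fgf13a* and *fgf14*, which encode intracellular members of the family and not secreted ligands. *fgf14* was lower in EpiCs, with 18 and 12 in *tcf21-/-* EpiCs, 4 and 4 in *tcf21+/+* EpiCs, 662 and 662 in *tcf21-/-* CMs, and 637 and 526 in *tcf21+/+* CMs. *fgf17*, a secreted ligand, had 5 and 9 in *tcf21-/-* EpiCs, 11 and 0 in *tcf21+/+* EpiCs, 1663 and 1687 in *tcf21-/-* CMs, and 2098 and 1542 in *tcf21+/+* CMs. *fgf3*, another secreted ligand, named here after its values were seen, had 98 and 38 in *tcf21-/-* EpiCs, 156 and 58 in *tcf21+/+* EpiCs, 1927 and 1841 in *tcf21-/-* CMs, and 2224 and 1897 in *tcf21+/+* CMs. *fgf24*, also secreted, was called in the other direction, with 238 and 209 in *tcf21-/-* EpiCs, 620 and 865 in *tcf21+/+* EpiCs, 39 and 19 in *tcf21-/-* CMs, and 42 and 10 in *tcf21+/+* CMs. Its log2FC of EpiCs over CMs was 2.99 in *tcf21-/-* and 5.08 in *tcf21+/+* cells. Also called higher in EpiCs were *fgf11a* in both genotypes, *fgf18a* in *tcf21-/-* cells, and *fgf10a*, *fgf10b* and *fgf18b* in *tcf21+/+* cells, all with at most 172 in any library. Across the cell types, single ligands thus went the same way as *dusp6* or the opposite way.

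All 7 listed FGF receptor genes were tested, and 6 were called higher and 0 lower in EpiCs than in CMs, in each genotype. The list includes the receptor-like genes *fgfrl1a*, which was not called, and *fgfrl1b*, which was among the 6. *fgfr4* had 6607 and 7053 in *tcf21-/-* EpiCs, 6714 and 6325 in *tcf21+/+* EpiCs, 107 and 197 in *tcf21-/-* CMs, and 478 and 542 in *tcf21+/+* CMs. *fgfr3* had 3147 and 2530 in *tcf21-/-* EpiCs, 3290 and 2902 in *tcf21+/+* EpiCs, 139 and 171 in *tcf21-/-* CMs, and 79 and 119 in *tcf21+/+* CMs. Transcripts of the 6 called genes of this list thus ran opposite to the called members across the cell types. Of the receptors, *fgfr4* was the only gene called between genotypes, lower in *tcf21-/-* CMs by a log2FC of -1.80 (SE 0.26, *P*adj=0.0422), and 0 were called in EpiCs (limma, 0 under an unadjusted *P* of 0.05). In CMs 1 receptor was lower and 2 were higher in *tcf21-/-* under that unadjusted *P*, beside 12.2% of all genes. The 2 higher were *fgfr3* (log2FC 0.66) and *fgfr1b* (log2FC 1.66, 19 and 7 against 3 and 3). Of all genes, 0.249% were called higher and 0.118% lower in *tcf21-/-* CMs. The call for *fgfr4* was lost in 9 of 17 alternatives, among them library quality weights (*P*adj=0.1545), the compared groups alone (*P*adj=0.6603) and the omission of *tcf21-/-* CMs replicate 1 (*P*adj=0.07103) or *tcf21+/+* CMs replicate 1 (*P*adj=0.07435).

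Between genotypes the ligand list held 1 call, *fgf8b*, with 0 and 0 in *tcf21-/-* CMs and 41 and 46 in *tcf21+/+* CMs (*P*adj=0.0491). That call was lost in 13 of 16 alternatives, with *P*adj up to 0.204, among them the omission of *tcf21-/-* CMs replicate 1 (*P*adj=0.1799), *tcf21-/-* CMs replicate 2 (*P*adj=0.1711) or *tcf21+/+* CMs replicate 1 (*P*adj=0.1253). In EpiCs 0 of 16 ligands were called by limma, with 3 under an unadjusted *P* of 0.05, beside 8.46% of all genes. Of these, 2 were higher in *tcf21-/-* EpiCs, the intracellular members *fgf13a* (log2FC 0.98) and *fgf14* (log2FC 1.65), and 1 was lower, *fgf24*. *fgf24* had the lower values in *tcf21-/-* EpiCs given above, a limma log2FC of -1.71 (SE 0.67, *P*adj=0.533). The paper, which used DESeq2, reports *fgf24* as significantly lower in *tcf21-/-* EpiCs (*P*adj under 0.05). It also reports lower *fgf24* by RT-qPCR on dissected *tcf21-/-* hearts.

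Among 28 tested genes of the RAS/ERK cascade, 10 were called higher and 1 lower in *tcf21-/-* EpiCs compared with *tcf21-/-* CMs, and 11 higher and 2 lower in *tcf21+/+* EpiCs compared with *tcf21+/+* CMs. *map2k1*, which encodes a MEK, had 1110 and 879 in *tcf21-/-* EpiCs, 1430 and 1551 in *tcf21+/+* EpiCs, 330 and 288 in *tcf21-/-* CMs, and 264 and 243 in *tcf21+/+* CMs. Between genotypes, limma called 0 of the 28 in EpiCs and 0 in CMs, with 2 under an unadjusted *P* of 0.05 in each. The share of all genes under it was 8.46% in EpiCs and 12.2% in CMs.

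A broad list of other ERK feedback and response genes did not, as a whole, share the order of the called members. The list also held regulators and substrates of the cascade, such as *nf1a*, *rasa1a*, *cbl* and *elk1*. Of 25 found and tested, 9 were called higher and 2 lower in *tcf21-/-* EpiCs compared with *tcf21-/-* CMs, and 12 higher and 2 lower in *tcf21+/+* EpiCs compared with *tcf21+/+* CMs. *dusp2*, which encodes another phosphatase of MAP kinases, had 2533 and 2576 in *tcf21-/-* EpiCs, 2992 and 3036 in *tcf21+/+* EpiCs, 639 and 701 in *tcf21-/-* CMs, and 708 and 789 in *tcf21+/+* CMs. *dusp4* and *etv1*, a gene of the same PEA3 group as *etv4*, were the 2 called lower in EpiCs in both genotypes, and they are named here after their values were seen. Between genotypes 0 of the 25 were called in EpiCs and 0 in CMs by limma. It gave an unadjusted *P* under 0.05 for 1 in EpiCs and 4 in CMs, beside 8.46% and 12.2% of all genes. The 4 in CMs were all higher in *tcf21-/-*, namely *etv1* (log2FC 2.33), *nab1a* (3.15), *ets1* (1.61) and *spred2b* (0.79). Of these, *etv1*, *nab1a* and *ets1* had at most 88 in any CM library. The 1 in EpiCs was *spred2a*, a relative of *spred1*, with 435 and 406 in *tcf21-/-* EpiCs against 793 and 691 in *tcf21+/+* EpiCs (log2FC -0.82, SE 0.24, *P*adj=0.33).

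Immediate early genes, which many stimuli and the handling of cells can induce, were also summed in normalized counts. The sum cannot show whether they followed *dusp6*, because short genes with many reads may lie near the limit on reads per base given below. An example is *jun* (chromosome 20, 15552657 to 15554606). It was lowest, at 2819, in *tcf21+/+* EpiCs replicate 1, where 1 read was worth 0.776 normalized counts. Its highest value, 5411, was in *tcf21+/+* CMs replicate 1, where 1 read was worth 1.573. The part of such a limit in this sum and in the calls was not tested. Single genes differed widely, with *klf2b* at 0 to 453 and *egr1* at 4125 to 6686 over the 8 libraries. The 19 rows summed to 40989 and 38163 in *tcf21-/-* EpiCs, 39998 and 43538 in *tcf21+/+* EpiCs, 37664 and 31743 in *tcf21-/-* CMs, and 50126 and 33529 in *tcf21+/+* CMs. Of the 19, 5 were called higher and 1 lower in EpiCs than in CMs in each genotype. Beside this, 21% of all genes were called higher in *tcf21-/-* and 22.9% in *tcf21+/+* cells. Between genotypes limma called 0 of the 19 in EpiCs and 0 in CMs, with 2 under an unadjusted *P* of 0.05 in each. The share of all genes under it was 8.46% in EpiCs and 12.2% in CMs. *nr4a1*, an orphan nuclear receptor gene, was the 1 lower in EpiCs, with 788 and 662 in *tcf21-/-* EpiCs, 1157 and 1135 in *tcf21+/+* EpiCs, 3790 and 2885 in *tcf21-/-* CMs, and 4005 and 2994 in *tcf21+/+* CMs. The highest sum belonged to *tcf21+/+* CMs replicate 1, the library with the highest normalized counts of *spry2*, *spry4*, *dusp6* and *etv4*. In that library 1 read was also worth the most, at 1.573 normalized counts. The part of this factor in the sum was not tested. The part of dissociation and sorting in the members' levels was not tested.

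That library was also the shallowest, and in estimated reads it was not the highest for any of these 4 genes. In estimated reads, before scaling, *spry4* had 3506 and 3494 in *tcf21-/-* EpiCs, 3665 and 3183 in *tcf21+/+* EpiCs, 4670 and 4247 in *tcf21-/-* CMs, and 3534 and 4186 in *tcf21+/+* CMs. *dusp6* had 1560 and 1086 in *tcf21-/-* EpiCs, 1839 and 1360 in *tcf21+/+* EpiCs, 3798 and 3180 in *tcf21-/-* CMs, and 3001 and 3927 in *tcf21+/+* CMs. For *dusp6* all CM libraries stayed above all EpiC libraries in reads, whereas for *spry4* they did not. A pair of cardiomyocyte markers singled out after their values were seen kept nearly the same reads in CM libraries of 6.44 to 9.39 M reads, *tnnt2a* with 2269 to 2332 and *nppa* with 3131 to 3179. *dusp6* did not, with 3001 to 3927 reads in the same libraries. The highest reads per base of gene span, over 745 genes of 1 to 2 kb, lay between 1.83 and 1.93 in every library. Among the members the highest value was that of *dusp6*, at 0.934 in *tcf21+/+* CMs replicate 2. The span includes introns, so these values cannot show how far a member stood from a limit on its exons. The part of such a limit in the members' fold changes was not tested.

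**Figure D3:**
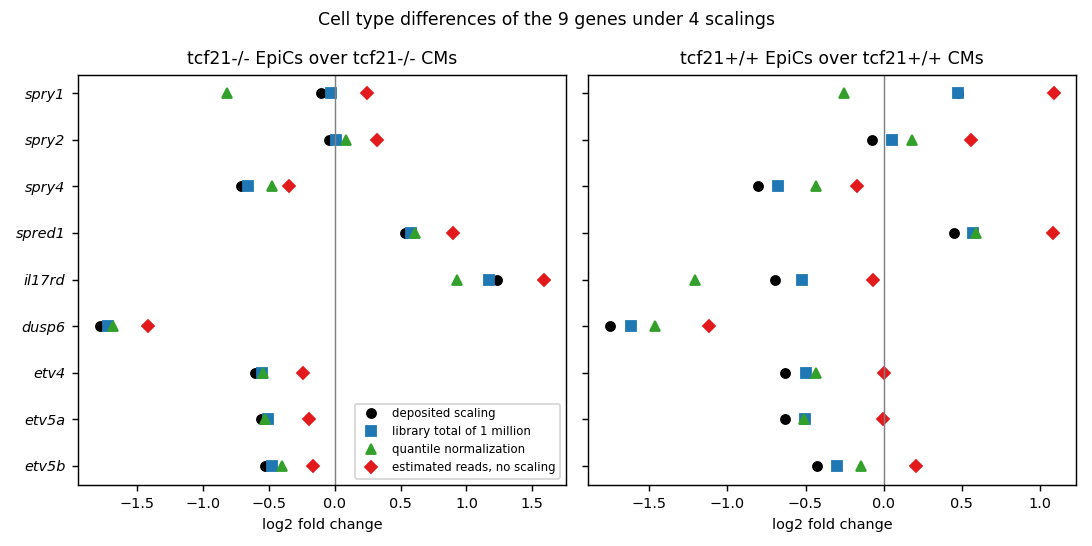
Log2 fold changes (horizontal axes) of EpiCs over CMs for the 9 genes under 4 scalings of the same values, *tcf21-/-* on the left and *tcf21+/+* on the right. *dusp6* stays at -1.42 or below in *tcf21-/-* and at -1.12 or below in *tcf21+/+* cells, while *etv4* in *tcf21+/+* cells lies between -0.63 and 0.00.

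Leaving the reads unscaled moved the whole table, as well as the members. The median log2FC of all genes of EpiCs over CMs was 0.45 in *tcf21-/-* and 0.74 in *tcf21+/+* cells without scaling, against 0.09 and 0.11 with it. Relative to that median, *dusp6* stood at -1.86 in *tcf21-/-* and -1.85 in *tcf21+/+* cells without scaling, *spry4* at -0.79 and -0.91, and *etv4* at -0.69 and -0.73. Under quantile normalization, which equalizes the whole distribution, *etv4* stood at -0.48 in *tcf21-/-* and -0.35 in *tcf21+/+* cells relative to the median, and *dusp6* at -1.62 and -1.38.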

How the data were processed

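RNA-seq libraries (SMART-Seq v4, single-end reads) of 8 samples were analysed, 2 in each of 4 groups taken from the labels. According to the methods, the authors trimmed reads with Trimmomatic 0.39, aligned them to danRer11 with STAR 2.7.3a, excluded reads on several genes or places, counted the rest with featureCounts 1.6.5 and used DESeq2 1.26.0. The authors deposited 1 table of signal values, which are gene counts divided by a factor for each library and rounded, and 0 columns of values were left unmapped. The factor, and from it the estimated reads, was found from the spacing of low values, a step tested on simulated data. Whether reads at the same position were merged is not given in the sources used here.

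Values were compared as log2(value + 1) with limma 3.58.1 in R 4.3.3, fitting all 8 libraries together with an abundance trend. The 16077 genes whose mean was at least 10 were tested two-sided, and Benjamini–Hochberg adjustment covered all of them. Genes with a *P*adj under 0.05 and a log2FC of at least 0.59 in size were called. The methods call the replicates biological, with cells collected over several sorting sessions. *P*-values measure the spread between libraries of a group, estimated as 1 value per gene shared by all 4 groups. How the sessions map onto the libraries is not given. The members, lists and tests were chosen with earlier results of these data known. All 9 members were named in every comparison, and in each list up to 4 genes, from the 2 with the lowest *P* in each comparison described. Alternatives were other pseudocounts, filters, scalings and limits, no trend, library quality weights, fits of only the compared groups, a replicate block and the omission of each library in turn. Estimated reads without scaling were added after the data were seen. Tables and figures were made in Python 3.11.15 (matplotlib 3.10.9, numpy 2.4.6, pandas 2.3.3). Imaging data were not analysed here.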

Additional observations from a re-analysis of the deposited data

How the results depend on the processing

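Across the alternatives, 0 members were called between genotypes in either cell type or for the difference between cell types, and *dusp6* was called in both comparisons of cell types under every alternative. At a log2FC limit of 1, 1 member (*dusp6*) was called in each genotype, and without the abundance trend 1 in *tcf21-/-* cells. Leaving out single libraries gave 1 to 5 members in *tcf21-/-* cells and 2 to 4 in *tcf21+/+* cells. With the replicate block the called members were again 3 in each genotype (*spry4*, *dusp6* and *etv4*), and 9 genes in EpiCs and 1 in CMs were called between genotypes over the whole table. Deviations of same-numbered libraries correlated at -0.081 to 0.067, so that the numbers gave no sign of pairing.

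Values near 0 changed sign with scaling. For *spry4* between genotypes in EpiCs the log2FC was -0.019 scaled to 1 M, -0.019 with upper quartile scaling and -0.018 with quantile normalization. In CMs *etv5b* was 0.0487, 0.0103 and 0.104 under the same 3, and quantile normalization gave 0.0038 for *spry2* and 0.019 for *spry4*. Estimated reads without scaling, chosen after seeing the data, gave in CMs 0.15 for *spry1*, 0.22 for *spry2*, 0.21 for *spry4*, 0.0178 for *dusp6* and 0.29 for *etv5b*. Between EpiCs and CMs, *spry2* was 0.0083 in *tcf21-/-* and 0.0517 in *tcf21+/+* cells scaled to 1 M, 0.0827 and 0.182 with quantile normalization, and 0.32 and 0.56 without scaling. *spry1* was -0.25 in *tcf21+/+* cells with quantile normalization and 0.25 in *tcf21-/-* cells without scaling, which gave 0.0017 for *etv4* and 0.21 for *etv5b* in *tcf21+/+* cells.

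With single libraries left out, signs also changed between genotypes in EpiCs for *spry4* (-0.0372 to 0.0529) and *etv5a* (-0.20 to 0.37). In CMs they changed for *spry1* (-0.87 to 0.61), *spry2* (-0.25 to 0.10), *spry4* (-0.26 to 0.10), *spred1* (-0.0433 to 0.238), *il17rd* (-1.30 to 0.29), *etv5a* (-0.34 to 0.37) and *etv5b* (-0.12 to 0.12). Between cell types they changed for *spry1* (-0.61 to 0.39 in *tcf21-/-*, -0.26 to 1.22 in *tcf21+/+*) and *spry2* (-0.25 to 0.10 in *tcf21+/+*).

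Counts over all genes moved more. Between genotypes in EpiCs, 31 genes were called as reported, 76 with a pseudocount of 5, 99 scaled to 1 M, 88 with quantile normalization, 54 without the trend, 133 with library weights, 0 in the compared groups alone and 0 without scaling, and 0 to 6 with a library left out. In CMs the count was 59 as reported, 21 with a pseudocount of 5, 22 without a filter, 13 scaled to 1 M, 0 with library weights, 0 in the compared groups alone and 0 without scaling, and 13 to 1358 with a library left out. The difference between cell types called 0 genes as reported, 4 scaled to 1 M, 9 with quantile normalization and 58 without the trend, and 0 to 119 with a library left out. Leaving out *tcf21+/+* CMs replicate 2 gave the 1358, and the SD of the log2 difference between replicates was largest in that group (1.256, against 0.903 to 1.046). The cause of these shifts was not tested. Few reads limit *spry1* and *il17rd*, whose lowest libraries held 17 and 37 estimated reads.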
